A study of Mus musculus with 2 samples.

Results

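Semaphorins are guidance ligands, plexins are their signalling receptors, and the neuropilins Nrp1 and Nrp2 are co-receptors that hold ligand and plexin together. The 31 genes described here were taken by symbol from the 32285 features of the deposited matrices: 20 semaphorins of classes 3 to 7, 9 plexins and the 2 neuropilins. The rule uses symbols alone. RNA was measured by single-cell sequencing (10x Genomics droplets) in vein grafts, which are veins placed into the arterial circulation, of C57BL6/J mice aged 10 to 12 weeks. The 2 groups were conventional grafts and No-Touch grafts, a way of harvesting in which the vein keeps the tissue around it. In both, digested grafts were sorted for live, nucleated, CD45-negative cells (CD45 is the common leukocyte antigen). Each group is 1 library, so each difference given below is between these 2 libraries and has no replicate check. Library, graft type and any difference in handling cannot be told apart. How many animals a library holds is not known here, and the labels leave unsettled which version of the droplet kit served each library.

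Class 3 semaphorins are secreted and mostly reach plexins of the A type or plexin D1 through a neuropilin, whereas classes 4 to 7 are held at the cell surface and largely bind plexins directly. Plexins act through their GTPase-activating domain on small GTPases of the Rap and R-Ras group and, for B-type plexins, through RhoA exchange factors, which detach cells from matrix and collapse actin. In the vessel wall these signals restrict sprouting and shape lymphatic valves and nerve patterning, and the neuropilins also serve as co-receptors for vascular endothelial growth factors.

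Promoters are shown for the members whose level in 1 cell class was at least 10 times that in the next of 6 classes in both libraries: Plxnb3 and Sema4f in Schwann cells, and Sema3a and Sema3d in lymphatic endothelial cells. Sema3b met the same rule. Each sequence is the 250 bases before the gene's start in RefSeq on GRCm38.p6, read 5′ to 3′ on the gene's strand. Capitals mark ACAAAG or ACAATG on either strand, the core letters bound by SOX-type HMG boxes. The windows lie at chrX:73756853-73757102 on the plus strand for Plxnb3, chr6:82939770-82940019 on the minus strand for Sema4f, chr5:13396534-13396783 on the plus strand for Sema3a and chr5:12382916-12383165 on the plus strand for Sema3d.
Plxnb3: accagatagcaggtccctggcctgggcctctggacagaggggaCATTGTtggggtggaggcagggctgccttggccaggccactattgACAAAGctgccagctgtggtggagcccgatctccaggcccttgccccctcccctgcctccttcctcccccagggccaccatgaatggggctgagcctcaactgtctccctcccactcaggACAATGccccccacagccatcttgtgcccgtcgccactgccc
Sema4f: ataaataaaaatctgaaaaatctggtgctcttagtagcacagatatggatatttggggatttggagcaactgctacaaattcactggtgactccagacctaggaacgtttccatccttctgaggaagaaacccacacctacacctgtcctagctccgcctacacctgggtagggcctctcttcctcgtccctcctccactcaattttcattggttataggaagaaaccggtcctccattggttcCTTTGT
Sema3a: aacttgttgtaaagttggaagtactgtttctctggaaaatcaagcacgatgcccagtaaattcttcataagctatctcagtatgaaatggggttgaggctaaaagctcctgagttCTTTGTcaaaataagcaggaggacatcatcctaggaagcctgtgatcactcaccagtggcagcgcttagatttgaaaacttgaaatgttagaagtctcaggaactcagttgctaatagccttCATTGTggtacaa
Sema3d: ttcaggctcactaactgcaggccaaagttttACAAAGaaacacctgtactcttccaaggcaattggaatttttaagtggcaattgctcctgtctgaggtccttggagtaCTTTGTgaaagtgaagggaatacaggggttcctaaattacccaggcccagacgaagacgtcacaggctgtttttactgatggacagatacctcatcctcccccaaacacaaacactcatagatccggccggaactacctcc

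The Plxnb3 window held 3 matches, at 207, 162 and 42 bases before the start. The Sema4f window held 1, at 6 bases, the Sema3a window 2, at 135 and 13 bases, and the Sema3d window 2, at 219 and 141 bases. Over the members with an entry, 26 genes with 37 promoters, 8 promoters held a match (21.6%). The share over all 32851 promoters of that length in RefSeq was 25.2%, so the family as a whole held the letters no more often than other promoters, and a match is a description and not a binding site. In GENCODE the Sema3a window lies inside the gene, which spans 13125414 to 13602565 on chromosome 5. The last bases of the Plxnb3 window overlap the start of that gene, annotated at 73757090 to 73772514 on chromosome X. Sema4f spans 82911885 to 82939769 on chromosome 6 and Sema3d spans 12383385 to 12588948 on chromosome 5.

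After removal of cells with under 1000 UMIs (unique molecular identifiers, 1 per captured RNA), under 500 genes or over 10% mitochondrial UMIs, 10458 conventional and 11525 No-Touch cells were kept, at medians of 16778 and 28472 UMIs per cell. Cells were put in classes by marker genes, none of them a member of the family, and a level (UPM) is the class's summed UMIs of a gene per 1000000 UMIs of that class. Counts come from transcript ends and are not divided by gene length, so levels are compared between classes and libraries, not between genes. No gate was passed by 20.5% of cells in the conventional library and 8.43% in the other. Cells past the gates of several classes (2.26% and 2.81%) were left out. The 6 classes with at least 100 cells in both libraries were fibroblasts (5555 conventional and 8437 No-Touch cells), pericytes (609 and 275), smooth muscle cells (291 and 320), blood endothelial cells (816 and 414), lymphatic endothelial cells (317 and 281) and Schwann cells (141 and 266), which ensheathe nerve fibres. The share of a class's cells that had only just enough markers ran from 3.86% in No-Touch blood endothelial cells to 29.8% in conventional Schwann cells. Medians over cells of other classes' markers were below 20% of those classes' own level, apart from blood endothelial markers in lymphatic cells (57.1% and 61.0%), which the 2 endothelial types share, and pericyte markers in smooth muscle cells, at 42.8% in conventional cells against 9.37% in No-Touch cells. The libraries had 22 barcodes in common. Intervals are exact 95% intervals for counting error only, and a member is said to differ between libraries when its levels, each with 1 UPM added, were at least 1.5 times apart and 1 of them reached 10 UPM. Log2 ratios carry the added 1, and plain ratios do not.

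**Figure D1:**
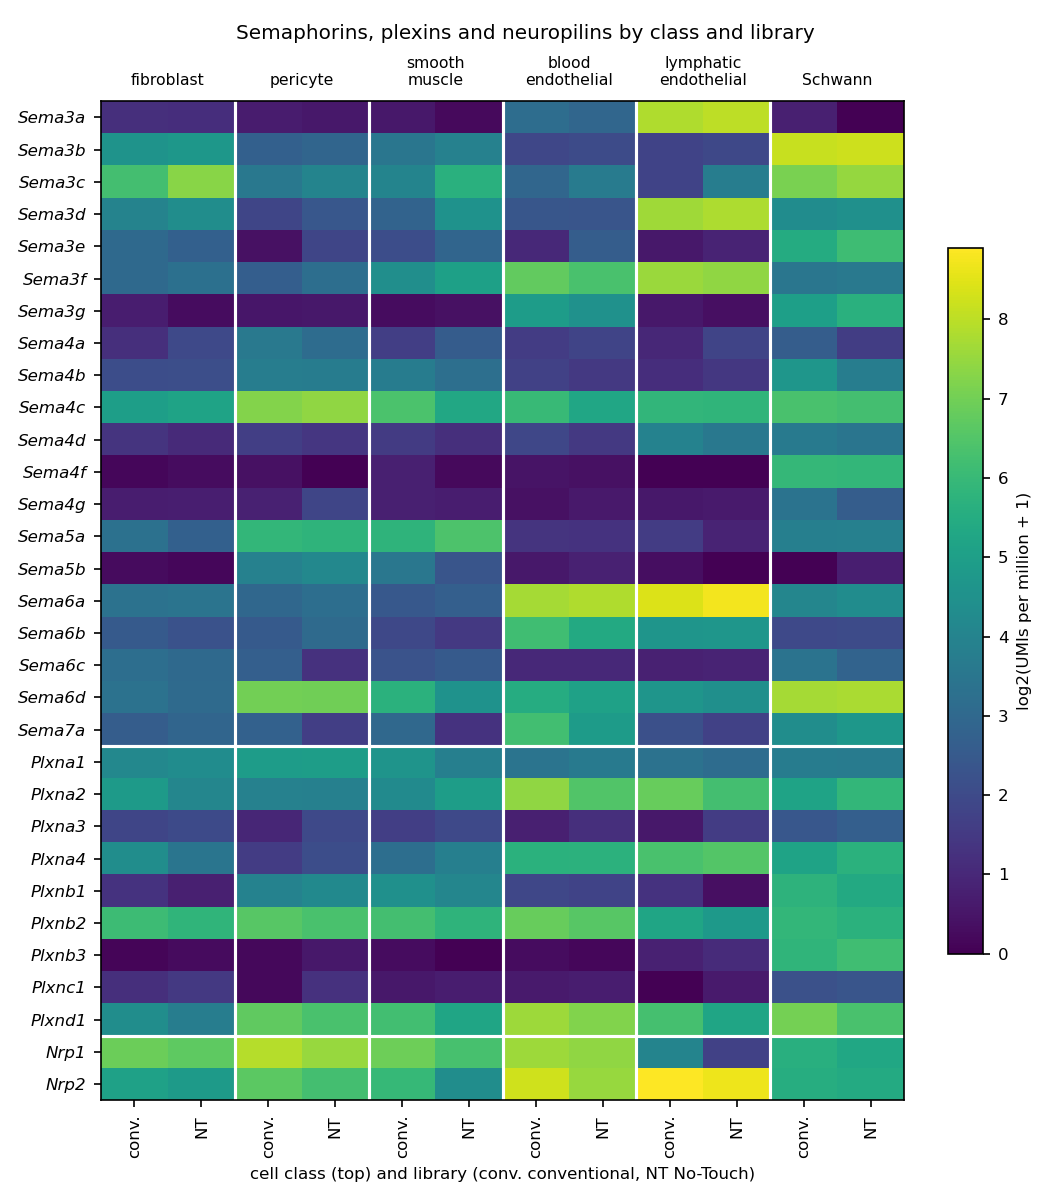
Level of the 31 members (rows) in the 6 cell classes of each library (columns; conv., conventional; NT, No-Touch), with colour giving log2 of UPM plus 1. The same class was the highest in both libraries for 29 of 31 members, by the highest value alone, whether or not intervals overlapped.

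The pattern over cell classes was much the same in both libraries. Of the 31 members, 27 reached 10 UPM in at least 1 of the 6 classes, and 29 had their highest level in the same class in both libraries. Of the 21 that reached 50 UPM, 20 did. The exception was Sema5a, whose level was highest in pericytes of the conventional library and in smooth muscle cells of the No-Touch library. These counts go by the highest value alone. For some members, among them Nrp1, Plxnb2, Sema4d and Sema5a, the highest class and the next had overlapping intervals in 1 or both libraries. The 31 include 4 members under 10 UPM in all 6 classes. The plot of levels by class shows blocks of ligands for lymphatic endothelial cells and Schwann cells. These levels describe the classes and were given no test.

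Lymphatic endothelial cells carried Sema3a, the founding repulsive ligand of the secreted class, which acts through Nrp1 and plexins of the A type. Its level was 226 UPM (212 to 241) in conventional and 260 UPM (243 to 277) in No-Touch cells. Blood endothelial cells followed at 7.97 and 6.60 UPM, and the other 4 classes were at 1.32 UPM or less. With every cell thinned to 5000 UMIs, Sema3a was seen in 178 of 296 conventional lymphatic cells (60.1%, 54.3 to 65.8) and 158 of 260 No-Touch ones (60.8%, 54.5 to 66.7), with 21 shallower cells left out of each. Unthinned shares were 77.6% and 80.1%. The thinned share in fibroblasts, which stand in for background, was 0.511% and 0.506%. The 2 libraries thus gave overlapping shares, far above that of fibroblasts.

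Sema3d, another secreted ligand, had a like pattern at 196 UPM (183 to 210) and 224 UPM (209 to 240) in lymphatic cells. The next class stood at 19.0 UPM in the conventional library (Schwann cells) and 22.2 UPM in the No-Touch library (smooth muscle cells). Sema6a, a transmembrane ligand of plexins A2 and A4, was at 349 and 425 UPM in lymphatic and 207 and 231 UPM in blood endothelial cells, against 19.3 UPM or less in every other class of the 6. Sema3f, which binds Nrp2, ran in the same order at 188 and 173 UPM in lymphatic and 107 and 81.4 UPM in blood endothelial cells. So the secreted ligands Sema3a and Sema3d marked lymphatic endothelium, while Sema6a and Sema3f were shared by both endothelial types at lower levels in blood vessels.

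Blood endothelial cells had the highest level of Sema6b (71.7 conventional and 41.1 UPM No-Touch, against 24.0 and 24.7 in lymphatic cells) and of the membrane-anchored Sema7a. For Sema7a the blood endothelial level was 73.8 UPM in the conventional library, above Schwann cells at 19.7. In the No-Touch library the order held, at 28.8 and 25.2 UPM, but the intervals of these neighbours overlapped. Among blood endothelial cells grouped by further markers, Sema7a stood at 219 UPM in 19 conventional arterial cells, 184 UPM in 114 capillary cells and 21.8 UPM in 448 venular cells. The No-Touch values in the same order were 119 UPM in 16 cells, 138 UPM in 18 cells and 8.72 UPM in 227 cells. Sema3g, a class 3 ligand known from arterial endothelium, had a sharper pattern, with 219 and 206 UPM in arterial, 45.6 and 44.9 UPM in capillary, and 0.458 and 1.91 UPM in venular cells (3 and 9 UMIs). Of the arterial, capillary and venular groups, both ligands were thus lowest in the venular cells of both libraries, though the arterial groups are small. Other blood endothelial groups are not ranked here.

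Schwann cells had the highest level of Sema3b, Sema3e, Sema4f and Sema6d among the 6 classes. Sema3b was at 283 UPM (255 to 312) and 296 UPM (277 to 317), with fibroblasts next at 23.1 and 25.0 UPM. Sema4f, a transmembrane class 4 ligand, was at 60.6 and 58.3 UPM, and no other of the 6 classes passed 0.713 UPM. After thinning, Sema4f was seen in 25.5% of 110 conventional Schwann cells (17.6 to 34.6) and in 27.4% of 186 No-Touch ones (21.1 to 34.4), against 0.0183% and 0.108% of fibroblasts. Unthinned, the Schwann shares were 27.7% and 30.5%, and 31 conventional and 80 No-Touch Schwann cells were too shallow for thinning. Sema3e, which unlike its relatives binds plexin D1 without a neuropilin, was at 43.1 and 70.3 UPM, and Sema6d, a transmembrane ligand of plexin A1, at 208 and 216 UPM. These 4 ligands sat beside Plxnb3, a B-type plexin, at 56.3 UPM (44.4 to 70.3) and 71.7 UPM (62.3 to 82.1), with 1.14 UPM or less elsewhere among the 6 classes. Plxnb3 was seen after thinning in 24.5% and 30.1% of Schwann cells and in 0.0183% and 0.0964% of fibroblasts, and its unthinned Schwann shares were 41.1% and 47.4%.

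Pericytes, which wrap small vessels, had the highest Sema4c, a ligand of plexin B2, at 150 UPM (141 to 160) and 169 UPM (157 to 182). Sema6d was next highest in pericytes after Schwann cells, at 129 and 124 UPM. Sema5a, whose extracellular part carries thrombospondin repeats, was a mural gene in both libraries, at 59.2 and 54.1 UPM in pericytes and 54.0 and 85.4 UPM in smooth muscle cells, against 13.8 UPM or less in the other 4 classes.

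Leukocytes were few after the sort, and their values rest on little. Sema4d (CD100), a ligand of plexin B1 prominent on leukocytes, was at 533 UPM (470 to 602) in 175 conventional neutrophils and 429 UPM (334 to 543) in 31 No-Touch neutrophils. It stayed at 14.6 UPM or less in all 6 classes compared. Sema4a, which is known on immune cells, was at 102 and 124 UPM in neutrophils and 93.5 UPM (79.1 to 110) in 114 T or NK cells of the No-Touch library, with 11.2 UPM or less in the 6 classes. Both ligands were thus higher in these leukocytes, which the sort was set to remove, than in any of the 6 classes.

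The receptors were spread over more classes than the ligands. Nrp1 was highest in pericytes at 239 UPM (228 to 252) and 183 UPM (171 to 197), followed by blood endothelial cells at 192 and 172 UPM, and these neighbours had overlapping intervals in the No-Touch library. Smooth muscle cells (123 UPM) and fibroblasts (119 UPM) came next with overlapping intervals in the conventional library, and fibroblasts (103 UPM) before smooth muscle cells (79.3 UPM) in the No-Touch library. Its level in 44 conventional and 25 No-Touch perineurial cells, the sheath around nerve bundles, was 282 and 272 UPM. Lymphatic endothelial cells had the lowest Nrp1, at 15.3 and 2.27 UPM. Nrp2 went the other way, as is known for venous and lymphatic endothelium, with 478 UPM (457 to 500) and 413 UPM (392 to 435) in lymphatic and 305 and 184 UPM in blood endothelial cells. Fibroblasts had 32.9 and 28.1 UPM of Nrp2. The 2 co-receptors thus had opposite extremes in lymphatic endothelium in both libraries.

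Plxnd1, the receptor of Sema3e and of neuropilin-bound class 3 ligands in vessels, was highest in blood endothelial cells at 192 and 149 UPM and lowest in fibroblasts at 19.4 and 12.7 UPM. Plxna2 was highest in blood endothelial cells at 173 and 89.4 UPM. In the No-Touch library its blood endothelial, lymphatic and Schwann levels (89.4, 75.0 and 57.9 UPM) were neighbours with overlapping intervals. Plxna4, which with Nrp1 forms a Sema3a receptor, was highest in lymphatic cells at 79.9 UPM (71.4 to 89.1) and 89.8 UPM (80.2 to 100), and lowest in pericytes at 2.00 and 3.35 UPM. Plxnb2 was above the floor in all 6 classes of both libraries, from 36.8 UPM in lymphatic to 112 UPM in blood endothelial cells of the conventional library and from 27.0 to 95 UPM in the same classes of the No-Touch library. Plxnb1 was highest in Schwann cells at 53.3 and 41.7 UPM.

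The 10 members that did not reach 50 UPM were Plxna1, Plxna3, Plxnc1, Sema3g, Sema4a, Sema4b, Sema4d, Sema4g, Sema5b and Sema6c, with a highest class level of 49.6 UPM. Among them Plxna3, Plxnc1, Sema4g and Sema6c were under 10 UPM in all 6 classes of both libraries. Plxnc1, the plexin that binds Sema7a, was at 18.5 and 62.1 UPM in the small perineurial class.

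In fibroblasts the secreted ligand Sema3c was higher in the No-Touch library and the receptors Plxna2 and Plxna4 were lower. Sema3c, which acts through neuropilins with plexins A2, A4 and D1 and is known for its part in outflow tract formation, was at 74.8 UPM (73.3 to 76.3) and 159 UPM (158 to 161), conventional value first here and below, a ratio of 2.13 (2.08 to 2.18). Plxna2 was at 27.9 UPM and 15.8 UPM, a ratio of 0.565 (0.542 to 0.590). Plxna4 was at 19.7 UPM and 10.1 UPM, a ratio of 0.515 (0.489 to 0.542). Plxnd1, at 19.4 and 12.7 UPM, was just within 1.5 times once 1 UPM was added. Among the 11 members at the 10 UPM floor there were thus 1 higher and 2 lower. Over all genes at the floor in fibroblasts 6.63% were higher and 3.22% lower, so 1 higher member in 11 is near the background while 2 lower members in 11 is a larger share on a very small count. The median log2 ratio was -0.21 for the members and 0.05 for all genes.

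The shift of Sema3c was present in each fibroblast group. Fibroblasts were divided by further markers into adventitial progenitor (617 conventional and 1479 No-Touch cells), matrix-producing (131 and 787) and inflammatory (2365 and 2232) cells, those with markers of several groups (638 and 949) and those with none (1804 and 2990). The make-up thus moved with the library: adventitial progenitors were 11.1% and 17.5% of the fibroblasts and inflammatory ones 42.6% and 26.5%, and matrix-producing ones 2.36% and 9.33%. Sema3c was a gene of the adventitial progenitors, with 271 UPM (262 to 280) and 451 UPM (446 to 457), a ratio of 1.67 (1.61 to 1.73). In matrix-producing cells it was at 28.2 and 66.3 UPM, a ratio of 2.35 (1.96 to 2.84). In inflammatory cells it was at 25.3 and 59.3 UPM, a ratio of 2.34 (2.21 to 2.48). Cells with several sets of markers had 208 and 323 UPM, and cells with none had 27.2 and 54.0 UPM. Sema3c was therefore at least 1.5 times higher in 5 of 5 groups, so the difference was also present within each group, beside the larger share of adventitial progenitors.

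**Figure D2:**
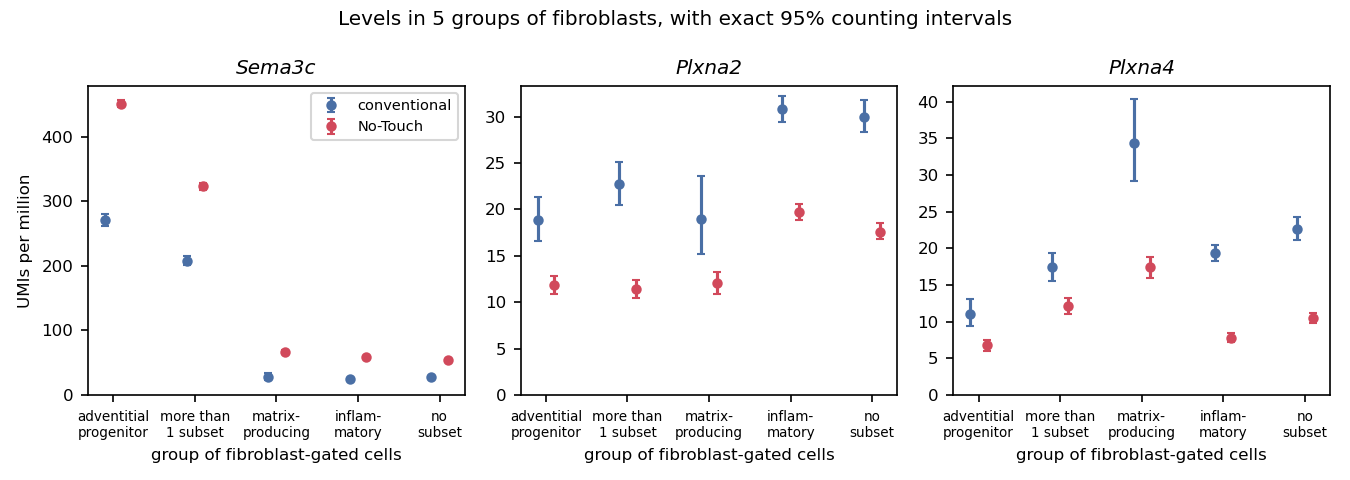
Levels of Sema3c, Plxna2 and Plxna4 in UPM in the 5 fibroblast groups of the conventional and the No-Touch library, with exact 95% counting intervals. Sema3c is higher in the No-Touch library in all 5 groups and stands highest in adventitial progenitors (271 and 451).

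Plxna2 was lower in 5 of 5 groups as well, for example 30.8 and 19.7 UPM in inflammatory and 18.8 and 11.8 UPM in adventitial progenitor cells. Plxna4 was at least 1.5 times lower in 4 of 5, for example 34.4 and 17.4 UPM in matrix-producing and 19.3 and 7.83 UPM in inflammatory cells. The exception was the group with several sets of markers, at 17.4 and 12.1 UPM. The share of all genes at least 1.5 times higher, then lower, was 6.61% and 3.85% in adventitial progenitors, 8.40% and 6.58% in matrix-producing, 7.03% and 3.26% in inflammatory cells, 7.48% and 3.84% in those with several sets and 6.94% and 3.84% in those with none.

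By share of cells the order was the same. After thinning, Sema3c was seen in 18.8% of 5475 conventional fibroblasts (17.8 to 19.9) and in 31.3% of 8295 No-Touch ones (30.3 to 32.4), with 80 and 142 cells left out. Unthinned shares were 37.1% and 60.2%, at median depths of 21132 and 33263 UMIs. T or NK cells of the No-Touch library, which are taken here to lack Sema3c, gave 5.45% (6 of 110) thinned and 15.8% unthinned, at a median of 10756 UMIs.

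Sema3c was also at least 1.5 times higher in No-Touch blood endothelial cells (6.63 and 12.0 UPM) and lymphatic endothelial cells (2.47 and 12.8 UPM, from 10 and 45 UMIs). As a percentage of the level in fibroblasts of the same library, Sema3c was at 8.86% and 7.55% in blood endothelial cells, where the summed fibroblast markers were at 6.83% and 11.5%. In lymphatic cells Sema3c was at 3.31% and 8.03% and the markers at 7.63% and 5.89%. Sema3c was thus above the markers in 2 of these 4 cases and below them in the other 2. In No-Touch T or NK cells Sema3c was at 11.3 UPM, which is 7.09% of the fibroblast level, with fibroblast markers at 6.44%. The No-Touch endothelial levels, 12.0 and 12.8 UPM, are close to this T or NK level. The conventional library held only 4 T or NK cells, with 1 Sema3c UMI, so it has no such value to set beside its endothelial levels. No expression by endothelium is read from these levels, and the part of free fibroblast RNA in them was not tested. In Schwann cells Sema3c stood at 139 and 178 UPM, above the fibroblasts of the same library.

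**Figure D3:**
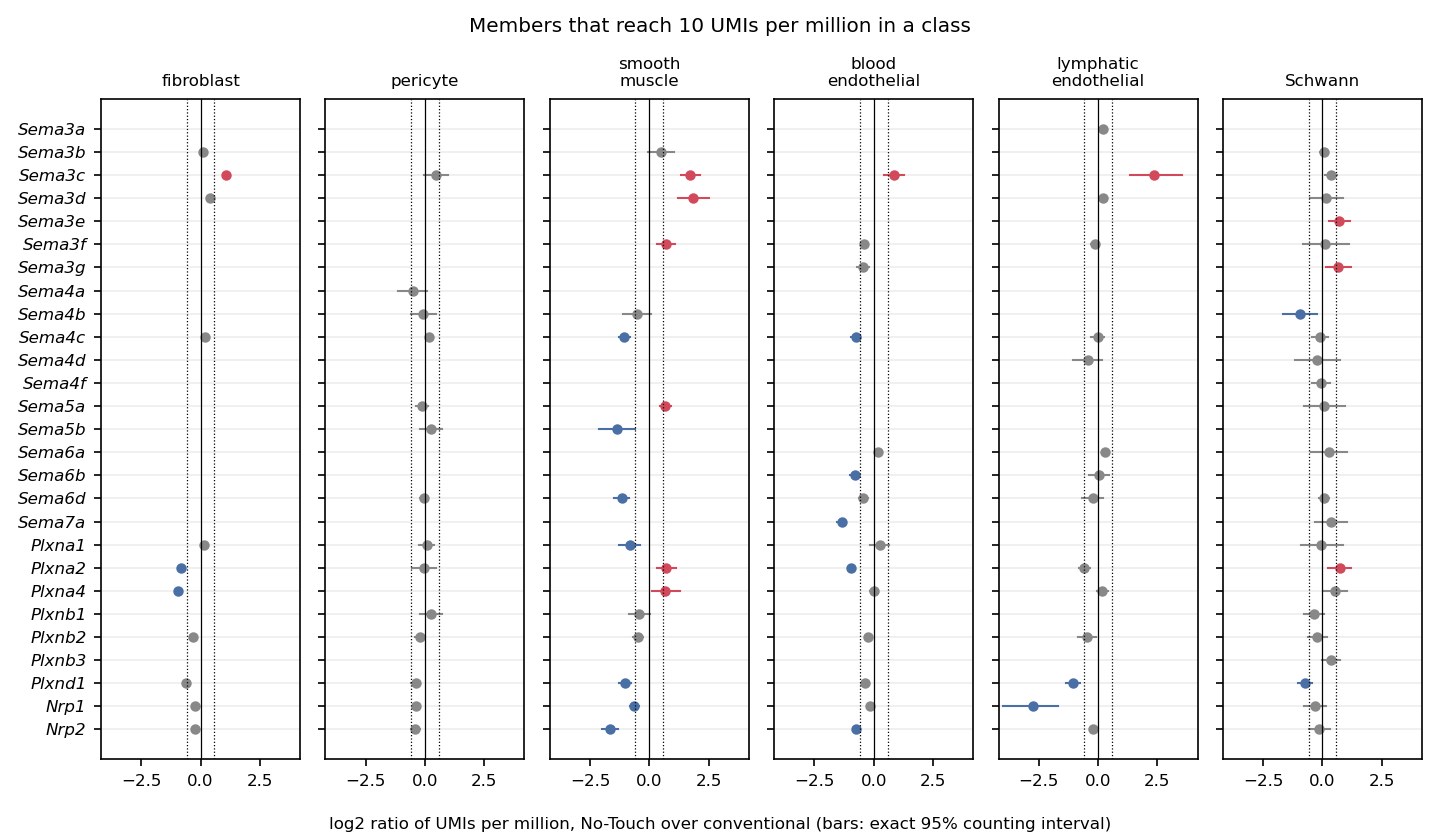
Log2 of the plain ratio of UPM (without the added 1), No-Touch over conventional, for each member (rows) that reaches 10 UPM in a class (panels). Bars are exact 95% counting intervals, dotted lines mark 1.5 times, and red is higher, blue lower and grey within 1.5 times. Colours follow the rule with 1 UPM added, so a grey point can lie just past a dotted line. No member of the pericyte panel is red or blue.

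Pericytes had no member at least 1.5 times apart among 14 at the floor. The background there was 10.1% of genes higher and 4.06% lower. Nrp1, at 239 and 183 UPM, had the ratio 0.766 (0.702 to 0.836). Sema4c had 1.12 (1.02 to 1.24) and Sema6d 0.959 (0.858 to 1.07). These intervals lie within 1.5 times in either direction and cover counting error only.

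Smooth muscle cells had the most members apart, 6 higher and 7 lower among 17 at the floor, where 14.2% of all genes were higher and 9.31% lower. The secreted ligands Sema3c, Sema3d and Sema3f were higher in the No-Touch library. Sema3c was at 15.2 UPM (11.7 to 19.4) and 49.8 UPM (44.4 to 55.8), a ratio of 3.28 (2.49 to 4.36). Sema3d was at 6.18 and 22.2 UPM, a ratio of 3.58 (2.34 to 5.68), and Sema3f at 20 and 32.7 UPM, a ratio of 1.64 (1.26 to 2.14). Sema5a was at 54.0 and 85.4 UPM. The plexins Plxna2 (18.3 and 30.3 UPM) and Plxna4 (8.32 and 13.4 UPM) were higher too.

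Lower in No-Touch smooth muscle cells were both co-receptors, 2 plexins and 3 membrane-bound ligands. Nrp2 was at 62.1 UPM (54.8 to 70.1) and 19.7 UPM (16.4 to 23.6), a ratio of 0.318 (0.254 to 0.395). Nrp1 was at 123 and 79.3 UPM, a ratio of 0.643 (0.567 to 0.729). Plxnd1 was at 73.7 and 36.6 UPM, a ratio of 0.497 (0.417 to 0.592). Sema4c was at 82.0 and 39.6 UPM and Sema6d at 50.2 and 22.3 UPM. Plxna1 (23.3 and 13.2 UPM) and Sema5b (10.5 and 4.07 UPM) are outside the rule for named members and are named because they were among the 7. All 7 were higher in pericytes than in smooth muscle cells of the same library, for example Nrp2 at 99.7 and 75.3 UPM and Plxnd1 at 105 and 80.4 UPM in pericytes.

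The sum of the pericyte markers moved with this result. The 8 markers summed to 3829 UPM in conventional and 2217 UPM in No-Touch smooth muscle cells, and none of the 8 was at 0. Rgs5, at 2497 and 1350 UPM, made up most of the sum. Notch3, Higd1b, Pdgfrb and Ndufa4l2 were lower too. Kcnj8 (46.6 and 47.6 UPM) and Cspg4 (162 and 156 UPM) hardly differed, and Abcc9 (92.3 and 129 UPM) was higher. In an alternative added after the data were seen, only smooth muscle cells with at most 1 pericyte marker were kept, 35 conventional and 92 No-Touch cells, and the sum was 703 and 379 UPM. There Nrp2 was at 28.0 and 11.9 UPM (log2 ratio -1.17), Plxnd1 at 34.2 and 16.7 UPM (-0.99), Nrp1 at 71.5 and 43.7 UPM (-0.70) and Plxna1 at 20.2 and 10.3 UPM (-0.91). Sema3c was at 29.5 and 73.4 UPM (1.28) and Sema3d at 7.78 and 32.4 UPM (1.93). Those 6 members kept their direction and were still over 1.5 times apart in this small subset. The marker sum was also still apart there (log2 ratio -0.89, against -0.79 in the whole class), so the subset did not even out the pericyte markers. In all, 3 members were higher and 6 lower among 18 at the floor, where 22.6% of all genes were higher and 13.6% lower. Newly apart were Sema3e (0.99), Sema4b (-1.11) and Sema7a (37.3 and 2.16 UPM, -3.60). In the whole class Sema7a was under the floor, at 7.13 and 1.47 UPM, so its large ratio in the subset rests on the 35 conventional cells. Sema4c (18.7 and 15.7 UPM, log2 ratio -0.24), Sema5a (0.52) and Plxna2 (0.01) were then within 1.5 times, and so was Sema6d (10.9 and 7.02 UPM, -0.57), though only because of the added 1 UPM. Sema3f (-0.20) and Plxna4 (-0.46) turned. Sema5b had no UMI in this subset of either library. The part of pericyte RNA in the values of the whole class was not tested further. Fibroblast markers in smooth muscle cells summed to 22.8% and 17.8% of the fibroblast level, and Sema3c to 20.3% and 31.3%. By these percentages the No-Touch Sema3c level was above that of the fibroblast markers in the same cells, and the conventional level was not. The fibroblast level used here is over all fibroblasts, whose groups differed in Sema3c as given above. The source of this Sema3c RNA was not tested.

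**Figure D4:**
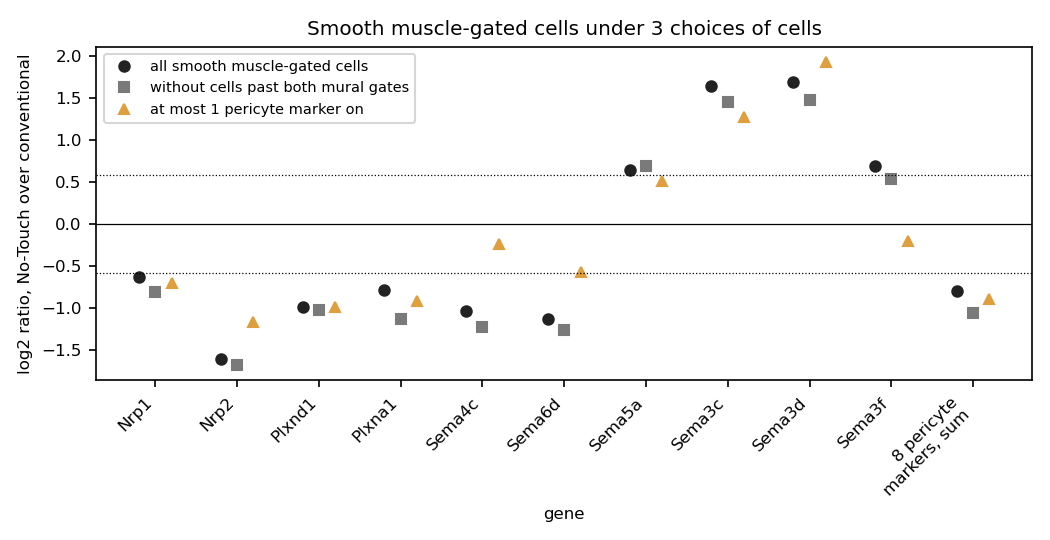
Log2 ratio of UPM, No-Touch over conventional, for 10 members and the sum of 8 pericyte markers in smooth muscle cells, under 3 choices of cells; dotted lines mark 1.5 times. Nrp2, Plxnd1 and the marker sum stay below and Sema3c and Sema3d above the dotted lines under each choice.

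Blood endothelial cells had 5 members lower and 1 higher among 15 at the floor, against 5.95% of all genes lower and 11.8% higher. Lower were the co-receptor Nrp2, the receptor Plxna2 and the ligands Sema4c, Sema6b and Sema7a. Sema7a was at 73.8 UPM (69.1 to 78.6) and 28.8 UPM (25.5 to 32.5), a ratio of 0.391 (0.340 to 0.448). Plxna2 was at 173 UPM (166 to 180) and 89.4 UPM (83.5 to 95.7), a ratio of 0.517 (0.477 to 0.561). Nrp2 was at 305 and 184 UPM, a ratio of 0.604 (0.571 to 0.640). Sema4c was at 63.7 and 37.8 UPM and Sema6b at 71.7 and 41.1 UPM. Nrp1 (192 and 172 UPM), Plxna4 (50.3 and 51.2 UPM), Plxnd1 (192 and 149 UPM) and Sema6a (207 and 231 UPM) were within 1.5 times.

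The make-up of the blood endothelium moved with this. Capillary cells, high in Sema7a and Sema4c (129 UPM conventional), were 14.0% of the class among conventional cells but 4.35% among No-Touch cells, while venular cells were 54.9% and 54.8%. Endothelial cells rich in matrix genes were 0.858% and 9.18% (7 and 38 cells). Within venular cells, the group with at least 100 cells in both libraries, Plxna2 was at 168 UPM (158 to 178) and 95.4 UPM (86.8 to 105) and Sema7a at 21.8 UPM (18.4 to 25.7) and 8.72 UPM (6.25 to 11.8). Both were still over 1.5 times lower, and the background among venular cells was 9.85% of genes higher and 5.67% lower. Nrp2 (339 and 269 UPM), Sema4c (43.5 and 33.6 UPM) and Sema6b (71.7 and 52.7 UPM) were within 1.5 times there. Sema3c was higher, at 5.34 and 13.2 UPM, beside 11.3 UPM in the T or NK cells named above.

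Lymphatic endothelial cells had 2 members lower and 1 higher among 15 at the floor, near the 7.65% and 8.90% of all genes in those directions. Plxnd1 was at 75.9 UPM (67.6 to 84.9) and 36.7 UPM (30.6 to 43.6), a ratio of 0.483 (0.390 to 0.595). Nrp1 was at 15.3 and 2.27 UPM, from 62 and 8 UMIs, a ratio of 0.148 (0.0613 to 0.311). With a looser marker gate, added after the data were seen, its log2 ratio was -0.04 in place of -2.32, so that value turns on which cells are taken as lymphatic. The 1 higher member was Sema3c. The ligands that marked these cells differed little: the ratios were 1.15 (1.05 to 1.26) for Sema3a, 1.14 (1.04 to 1.26) for Sema3d and 1.22 (1.13 to 1.31) for Sema6a, and Nrp2 was at 0.863 (0.806 to 0.924).

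Schwann cells had 3 members higher and 2 lower among 23 at the floor, close to the background of 14.2% higher and 9.19% lower. Higher were Plxna2 (35.1 and 57.9 UPM), Sema3e (43.1 and 70.3 UPM) and Sema3g (31.4 and 49.6 UPM). None of these 3 was still called higher with a 5% mitochondrial limit, or with a looser gate added after the data were seen. Lower were Plxnd1, at 132 UPM (114 to 153) and 80.0 UPM (70.0 to 91.0), and Sema4b (24.8 and 12.8 UPM, from 34 and 37 UMIs). Sema3g and Sema4b are outside the rule for named members and are named because they complete the count. The ligands that set Schwann cells apart were within 1.5 times, with ratios of 1.05 (0.929 to 1.19) for Sema3b, 0.961 (0.734 to 1.26) for Sema4f and 1.04 (0.899 to 1.20) for Sema6d. Plxnb3 had 1.27 (0.977 to 1.68), whose interval reaches past 1.5 times.

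The rest of the pathway was followed in 4 lists: 14 co-receptors and other semaphorin receptors, 10 ligands and receptors of the vascular endothelial growth factor type that share neuropilins or their partners, 35 effectors of plexins and 7 genes that process semaphorins. In fibroblasts 2 effectors of 29 at the floor were higher (6.90%) and 3 lower (10.3%), where 6.63% of all genes were higher and 3.22% lower. Rap1a, a GTPase that plexins inactivate, was at 115 and 198 UPM and the kinase Fer at 37.6 and 58.6 UPM. Rnd1, which binds plexins, was at 393 and 243 UPM, and Arhgef12, the exchange factor that links B-type plexins to RhoA, at 217 and 143 UPM. Among co-receptors, Chl1, an adhesion molecule, was the 1 lower of 5, at 142 and 64.0 UPM. None of 7 processing genes was apart, with Furin, a protease that cuts class 3 semaphorins, at 37.0 and 28.5 UPM.

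Among growth factor receptors and ligands that share neuropilins, 4 of 8 were lower and 1 higher in blood endothelial cells, where 5.95% of all genes were lower and 11.8% higher. Within venular cells, none of 7 was lower or higher. Kdr, the main receptor for Vegfa in endothelium, was at 352 and 207 UPM, and the ligands Pgf and Vegfa at 59.9 and 32.0 UPM and at 15.1 and 34.3 UPM. In smooth muscle cells 4 of 8 were lower and 1 higher (all genes, 9.31% and 14.2%), with Flt1, a decoy-type receptor, at 144 and 45.4 UPM and Hgf at 7.61 and 22.5 UPM. In pericytes 2 of 7 were lower (all genes, 4.06%), Flt1 (236 and 140 UPM) and Pgf (59.9 and 38.0 UPM). In lymphatic cells 1 of 7 was lower (all genes, 7.65%), Pgf at 471 and 216 UPM. In Schwann cells 3 of 5 were lower (all genes, 9.19%), among them Vegfa (27.8 and 12.1 UPM) and Pgf (50.4 and 22.8 UPM), and in fibroblasts 2 of 8 were lower (all genes, 3.22%). None was higher in these last 4 classes. Within fibroblast groups, 1 was higher and 1 lower among 7 in adventitial progenitors (all genes, 6.61% and 3.85%). The same counts held among 6 in matrix-producing (8.40% and 6.58%) and 7 in inflammatory cells (7.03% and 3.26%). Cells with several sets of markers had 0 higher and 1 lower of 7 (7.48% and 3.84%). Cells with none had 1 higher and 2 lower of 8 (6.94% and 3.84%). The list's median log2 ratio was -0.27 in blood endothelial cells, -0.39 in smooth muscle cells, -0.29 in pericytes, -0.12 in lymphatic cells, -0.84 in Schwann cells and -0.24 in fibroblasts, where the medians of all genes were 0.06, 0.08, 0.09, -0.01, 0.09 and 0.05. Flt1 is also a marker of the blood endothelial gate.

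Effectors were mostly within 1.5 times, with medians from -0.11 in lymphatic cells to 0.12 in fibroblasts. In endothelium Arhgef12 was lower in both types, at 328 and 192 UPM in blood and 437 and 232 UPM in lymphatic cells. Lymphatic cells had 4 of 27 effectors lower and 1 higher (14.8% and 3.70%, all genes 7.65% and 8.90%), among them Mical2, an actin-oxidising enzyme, at 210 and 121 UPM, and blood endothelial cells had 1 of 27 lower and 1 higher (3.70% each, all genes 5.95% and 11.8%), the latter Rnd3 at 16.8 and 33.4 UPM. Smooth muscle cells had 4 of 28 lower and none higher (14.3% lower, all genes 9.31%), with Rhoj at 516 and 267 UPM and the kinase Fyn at 48.0 and 22.2 UPM. Schwann cells had 6 of 30 lower and 3 higher (20% and 10%, all genes 9.19% and 14.2%), with Mical2 at 21.2 and 5.17 UPM and Rnd3 at 146 and 299 UPM. Pericytes had 2 of 30 lower and 1 higher (6.67% and 3.33%, all genes 4.06% and 10.1%), with Rnd1 at 87.5 and 48.6 UPM.

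Integrins that bind Sema7a or cooperate with plexins were part of the co-receptor list, whose median ran from -0.24 in fibroblasts to 0.39 in Schwann cells. In Schwann cells 3 of 9 co-receptors were higher and 2 lower, where 14.2% of all genes were higher and 9.19% lower, with Itga1 at 378 and 622 UPM, Itgb1 at 409 and 659 UPM and Itgav at 326 and 193 UPM. Smooth muscle cells had 1 of 3 lower (all genes, 9.31%), Itga1 at 524 and 249 UPM, while Itgb1 was at 936 and 1030 UPM. In lymphatic cells 3 of 8 were lower and 1 higher (all genes, 7.65% and 8.90%), with Itgav at 177 and 104 UPM. Blood endothelial cells had 3 of 8 lower and 2 higher (all genes, 5.95% and 11.8%), with Itgav at 83.3 and 53.2 UPM and Met, a receptor kinase that couples to B-type plexins, at 12.9 and 21.2 UPM. Pericytes had 2 of 7 lower and 1 higher (all genes, 4.06% and 10.1%), while Itga1, at 624 and 614 UPM, was not among them. The counts rest on few genes. Among processing genes, with medians from -0.23 in pericytes to 0.07 in Schwann cells, the membrane protease Mmp14 was lower in smooth muscle cells at 236 and 98.4 UPM and Furin in lymphatic cells at 68.0 and 41.5 UPM.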

How the data were processed

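For each library the authors deposited a filtered matrix of whole-number UMI counts (genes by barcodes), made with Cell Ranger 3.1.0 on mm10 per the submitters' processing notes and with Cell Ranger 6.0.0 per the file headers, which was not settled. Groups came from the sample titles. Members and gene lists were chosen with earlier results of these data known, and gate thresholds after the files were seen.

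A marker was on in a cell with at least 2 UMIs and at least 20% of its reference level (the 100 cells with most of the class's markers). A class needed at least 50% of its markers and at least 3. Cells past both endothelial gates were taken as lymphatic, cells past both mural gates (311 and 160) went to the larger share of markers, and other cells past several gates were left out as possible doublets. No doublet caller was run.

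UMIs were summed per class and library. Log2 ratios used UPM plus 1. With 1 library per group there is no test. Members reaching 50 UPM were named. From each pathway list up to 4 genes with the largest log2 ratio and at least 20 UPM were eligible to be named. Steps were tested on simulated data. Tools were Python 3.11.15, numpy 2.4.6, scipy 1.17.1, pandas 2.3.3, matplotlib 3.10.9, R 4.3.3 and edgeR 4.0.16 (TMM factors only). The alternatives were TMM and median-of-ratios scaling, no floor, a 5% mitochondrial limit, stricter and looser gates, leaving out the deepest 5% of cells, thinning, and weighting cells equally.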

Additional observations from a re-analysis of the deposited data

Results flagged for a closer look

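Plxna2 and Plxna4, 2 plexins of the A type, were drawn out because they differed between the libraries in opposite directions in different cell classes. Each class gives 1 value per library, so the difference between classes was not tested. Plxna2 had a log2 ratio, No-Touch over conventional, of -0.78 in fibroblasts and -0.94 in blood endothelial cells, and of 0.70 in smooth muscle cells and 0.71 in Schwann cells. Plxna4 had -0.89 in fibroblasts and 0.62 in smooth muscle cells. Both fibroblast values and the blood endothelial value stayed over 1.5 times apart under each of the 9 alternatives run for them. Plxna2 stayed apart in 6 of 9 in Schwann cells (lowest 0.47, with a 5% mitochondrial limit) and in 7 of 11 in smooth muscle cells, and Plxna4 in 6 of 11 in smooth muscle cells. Among smooth muscle cells with at most 1 pericyte marker the values were 0.01 for Plxna2 and -0.46 for Plxna4, so the contrast with fibroblasts does not hold in that subset.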

How the results depend on the processing

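No paired analysis was possible because each group is 1 library. Across 12 settings, 100 of 126 recomputed counts of members higher or lower stayed within 1.5 times of the reported count and 26 did not. A stable count need not hold the same members. Of the 3 higher in Schwann cells, 0 stayed with a 5% mitochondrial limit and 1 after thinning. Of the 7 lower in smooth muscle cells, 6 stayed without cells past both mural gates, an alternative added later. In fibroblasts the reported 1 higher and 2 lower members stayed in each setting. Where not stated otherwise, the cause was not tested. Without a floor the counts were 2 higher in fibroblasts, 4 higher and 2 lower in pericytes, 2 higher in blood endothelial cells, 4 higher and 4 lower in lymphatic cells and 5 lower in Schwann cells, since more members enter. These are of 31 members, or 30 in lymphatic cells. The shares of all genes were 3.68% in fibroblasts, 11.6% and 5.90% in pericytes and 11.7% in blood endothelial cells. They were 11.6% and 9.52% in lymphatic cells and 15.7% in Schwann cells. With a 5% mitochondrial limit 1 pericyte member of 14 at the floor (all genes, 9.90%) and 1 Schwann member of 23 (13.8%) were higher. Without the 5% of cells with the most UMIs 1 pericyte member of 14 was higher (all genes, 10.5%). With the stricter gate 1 Schwann member of 23 was lower (all genes, 9.05%). With the looser gate, added after the data were seen, 1 of 14 pericyte members (all genes, 10.5%) and 0 of 23 Schwann members (13.2%) were higher. After thinning, 4 of 13 members at the floor were lower in fibroblasts (all genes, 3.22%) and 3 of 15 higher in pericytes (14.1%). In blood endothelial cells 2 of 15 were lower (6.64%) and in lymphatic cells 1 of 14 (10.7%). In Schwann cells 5 of 23 were higher (19.1%). With each cell weighted equally, 4 of 13 were lower in fibroblasts (all genes, 3.17%). In pericytes 1 of 14 was higher and 1 lower (10.7% and 4.58%). In blood endothelial cells 3 of 15 were lower (5.51%) and in lymphatic cells 1 of 14 (8.54%). In Schwann cells 6 of 24 were higher and 5 lower (17.0% and 10.7%). Among smooth muscle cells with at most 1 pericyte marker, also added later, 3 of 18 were higher (all genes, 22.6%).

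Of 296 recomputed log2 ratios of single members 257 stayed at least 1.5 times apart. The 3 that turned were all in smooth muscle cells: Plxna4 was -0.17 after thinning and -0.46 with at most 1 pericyte marker, and Sema3f was -0.20 in that subset. In Schwann cells Sema3g stayed apart in 3 of 9 settings and Sema3e in 6 of 9. After thinning Nrp2 (-0.52), Sema4c (-0.44) and Sema6b (-0.46) in blood endothelial cells were within 1.5 times. Sema3c, Plxna2 and Plxna4 in fibroblasts, Sema7a and Plxna2 in blood endothelial cells and Nrp2, Plxna1, Plxnd1, Sema3c and Sema3d in smooth muscle cells stayed apart in every setting run.

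TMM scaling moved the median of all genes from 0.09 to -0.03 in pericytes, from 0.08 to -0.02 in smooth muscle and from 0.06 to -0.05 in blood endothelial cells. The shares of all genes higher and lower were then 6.62% and 6.26%, 10.6% and 12.3%, and 8.69% and 8.94%. Members were then 0 and 0, 4 and 7, and 1 and 5. Leaving out the 22 shared barcodes moved no count by over 1.5 times. With 1 library per group, intervals cover counting error only, and classes with few UMIs, such as conventional Schwann cells, allow wide ones.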
